A study of Mus musculus with 12 samples.

Results

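Interferon-stimulated genes are the genes that cells switch on when an interferon binds its receptor. A set of 37 of them was followed in the paw joints of mice with serum-induced arthritis. The set was defined by gene symbol, from the sensors of foreign nucleic acid to the enzymes and GTPases that block viral growth. Each of the 37 symbols matched 1 of the 52636 gene identifiers in the count table, and 35 of the 37 had enough reads to be tested.

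Type I interferons bind the receptor pair Ifnar1 and Ifnar2, whose kinases Jak1 and Tyk2 activate Stat2. A complex that holds Stat2 and Irf9 then binds the interferon-stimulated response element in the promoters of most of these genes, whereas interferon gamma acts at a gamma-activated sequence. Many of the genes are held at a low basal level in healthy tissue and are raised in infection and in several inflammatory diseases, including forms of arthritis.

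RNA was sequenced from 12 joints, each from 1 mouse, in 3 groups of 4. The first group received arthritogenic K/BxN serum and the agonistic anti-SIRPa antibody 6F2. The second received the same serum and anti-gp120, an antibody that serves as the negative control. The third was naive to the serum and also received anti-gp120. SIRPa, the receptor for CD47, passes an inhibitory signal to macrophages and other myeloid cells, and K/BxN serum carries antibodies that cause joint inflammation without a response of the recipient's own lymphocytes to the joint. Tissue was collected on day 7 after serum transfer. Strain, sex, age, antibody dose and the timing of the antibody are not stated in the sources used here. The groups are called anti-SIRPa, control-antibody and naive mice below, and mouse numbers are those of the labels.

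The tissue was total paw, and reads of skin and muscle were counted with those of the joint. Prg4, which encodes the joint lubricant lubricin, lay between 5475 and 10158 CPM (read counts scaled to library size) in every library. Libraries held 6893969 to 17597920 counts. All CPM values here are scaled by the trimmed mean of M values (TMM). A few libraries stood apart. Reads of smell and taste receptor genes, which a joint should not express, summed to 528 CPM in control-antibody mouse 2 and 227 CPM in mouse 4, against 29.5 CPM in mouse 3, 11.9 CPM in mouse 1 and 10.1 to 16.6 CPM in the 8 libraries of the other groups. The noncoding RNA Gm26917 took 1.68% to 2.52% of counts in anti-SIRPa, 2.89% to 8.28% in control-antibody and 1.63% to 2.39% in naive libraries, lowest in mouse 1 and highest in mouse 2 of the control-antibody group. Control-antibody mouse 1 had the lowest sum of its group for the 5 leukocyte markers. Anti-SIRPa mouse 2 and naive mouse 4 were almost without epidermal keratin. Results are therefore also given without these libraries.

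The promoters are shown first because they hold a response element more often than those of other genes, though not in every member. RefSeq promoter windows of 300 bases, 250 before and 50 after the annotated start, were at hand for 28 of the 37 genes on GRCm38.p6 (31 windows). The core of the interferon-stimulated response element, searched on both strands as GAAA, any 2 bases and GAAA again, was present in 15 of the 28 genes (53.6%), against 1079 of 27025 genes with a window (3.99%). A longer form, with a C after the second GAAA, was present in 12 of 28, against 0.944% of all genes. The gamma-activated sequence TTCNNNGAA, likewise on both strands, was present in 6 of 28 genes (21.4%), against 9.55% of all genes. Both motifs overlapped in 1 of the 31 windows.

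Below are the windows of Ifit1, with its paired elements, of Isg15, with the longest run of overlapping elements in the set, and of Igtp, a member with its own course across the 3 groups. Capitals mark matches to that core on either strand, which read as TTTC, 2 bases and TTTC where the match is on the other strand. Ifit1 lies at chr19:34640639-34640938 on the plus strand, Isg15 at chr4:156200769-156201068 on the minus strand and Igtp at chr11:58199306-58199605 on the plus strand.
Ifit1: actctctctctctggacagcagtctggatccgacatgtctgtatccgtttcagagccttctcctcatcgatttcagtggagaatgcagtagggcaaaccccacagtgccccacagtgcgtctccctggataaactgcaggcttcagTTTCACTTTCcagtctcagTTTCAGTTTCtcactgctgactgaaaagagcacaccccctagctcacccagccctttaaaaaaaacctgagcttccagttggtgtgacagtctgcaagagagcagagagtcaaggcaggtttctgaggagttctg
Isg15: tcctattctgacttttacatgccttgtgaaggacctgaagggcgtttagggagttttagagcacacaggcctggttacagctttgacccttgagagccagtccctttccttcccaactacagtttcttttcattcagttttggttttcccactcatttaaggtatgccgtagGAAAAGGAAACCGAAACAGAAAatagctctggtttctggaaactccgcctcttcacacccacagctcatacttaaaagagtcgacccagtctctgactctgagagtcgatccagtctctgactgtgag
Igtp: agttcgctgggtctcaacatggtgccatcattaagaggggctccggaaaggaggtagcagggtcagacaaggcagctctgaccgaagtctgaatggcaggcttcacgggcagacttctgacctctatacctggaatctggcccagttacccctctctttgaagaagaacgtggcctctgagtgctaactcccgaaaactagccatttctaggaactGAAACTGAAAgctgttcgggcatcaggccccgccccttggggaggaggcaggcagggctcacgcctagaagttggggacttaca

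In Ifit1 the elements began 104 and 85 bases before the start. The near-identical neighbours Ifit3 and Ifit3b carried the same pair, at 156 and 122 bases in Ifit3 and at 188 and 154 bases in Ifit3b. Printed with 5 bases on each side, the pair of Ifit3 reads as follows, with the element in capitals, in the window chr19:34583279-34583578 on the plus strand.
Ifit3 distal: gtaagTTTCACTTTCctctt
Ifit3 proximal: gtctgTTTCAGTTTCtactt
The Isg15 run covered 22 bases from 78 bases before the start, and the Igtp element began 34 bases before it, in a window that also held a gamma-activated sequence. The windows of Oasl1, Oasl2, Irf7 and Ifit2 held no match to the core, which says only that these letters are not in these 300 bases. No window was at hand for Oas2, Mx1, Mx2, Usp18, Dhx58, Zbp1, Rtp4, Ifi27l2a and Parp14.

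In control-antibody arthritis, 13 of the 35 tested genes rose over naive joints and 0 fell (edgeR quasi-likelihood test, Benjamini-Hochberg adjusted p below 0.05 over 16674 genes). Of all tested genes 10.3% passed, with 5.87% higher and 4.45% lower. The 13 were Ifit1, Ifit3, Ifit3b, Oas2, Oasl1, Oasl2, Ddx58, Zbp1, Irf7, Bst2, Trim30a, Ifi27l2a and Epsti1, which come from 6 of the 9 functional groups into which the 37 were sorted. The median log2 fold change of the 35 was 1.06, against 0.03 over all tested genes, and 30 of 35 were above 0, against 52.6% of all genes. For 9 of the 35, every control-antibody mouse was above every naive mouse, against 6.02% of all genes, and for 0 every one was below, against 6.47%. The share of Gm26917 reads, which was higher in all 4 control-antibody libraries than in the other 8, moved with this comparison, and its part was not tested. In a fit without the filter on low counts, all 37 were tested, 11 rose and the median was 1.09, against 800 of 37411 genes higher and a median of 0.38 over all genes.

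Under anti-SIRPa, Zbp1 fell and Igtp rose relative to control-antibody arthritis, and the other 33 tested genes did not pass. The background was 1.70% of genes lower and 1.59% higher. The median was -0.55, against -0.03 over all genes, and 5 of 35 values were above 0, against 47.0% of all genes, so that most of these genes had a lower fitted value in anti-SIRPa than in control-antibody joints without passing the test. Without control-antibody mouse 2, 9 of 35 values were above 0 and the median was -0.29, and without both libraries rich in receptor reads 13 of 35 were above 0. At an unadjusted p under 0.05 there were 15 of 35, against 24.4% of all genes. Ifit2, Samd9l and Igtp were the 3 for which every anti-SIRPa mouse was above every control-antibody mouse (background 5.18%), and for 0 genes was every anti-SIRPa mouse below (background 4.82%).

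Between anti-SIRPa and naive joints 0 of the 35 passed, as did 0 of all 16674 genes (0%). DESeq2 called 0 of the 35 and 20 of all genes, and at an unadjusted p under 0.05 edgeR had 6 of 35, against 4.05% of all genes. The median was 0.48, against -0.01 over all genes, with 32 of 35 values above 0 (49.0% of all genes). For 9 of 35, every anti-SIRPa mouse was above every naive mouse (background 3.04%). All 13 genes that rose in control-antibody arthritis had an anti-SIRPa mean between the control-antibody and the naive mean. These 13 were picked for high control-antibody and low naive values in the same data, so this count follows in part from that choice. The matching share over all genes that rose was not counted, so the count does not show a partial reversal under anti-SIRPa. The 3 comparisons share groups, so their values are not independent of each other.

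The mean log2 CPM over the 35 tested genes shows how mice of a group differed. It was 2.08, 1.95, 2.36 and 1.85 in anti-SIRPa mice 1 to 4, 1.82, 2.93, 2.58 and 2.56 in control-antibody mice 1 to 4, and 1.62, 1.71, 1.53 and 1.51 in naive mice 1 to 4. All anti-SIRPa mice were above all naive mice, and control-antibody mice 2, 3 and 4 were above all others, whereas control-antibody mouse 1 was below every anti-SIRPa mouse. Averaged by group it was 2.06 ± 0.22, 2.47 ± 0.47 and 1.59 ± 0.09 in anti-SIRPa, control-antibody and naive mice (SD, n = 4 each). Control-antibody mouse 2, the smallest library at 6893969 counts, held the highest value of all 12 libraries for 19 of the 37 genes. Mouse 1 was the lowest of its group for 25. Among anti-SIRPa mice, mouse 3 was the highest for 23. The matching shares over all genes were not counted, so these numbers do not show a trait particular to the 37.

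**Figure D1:**
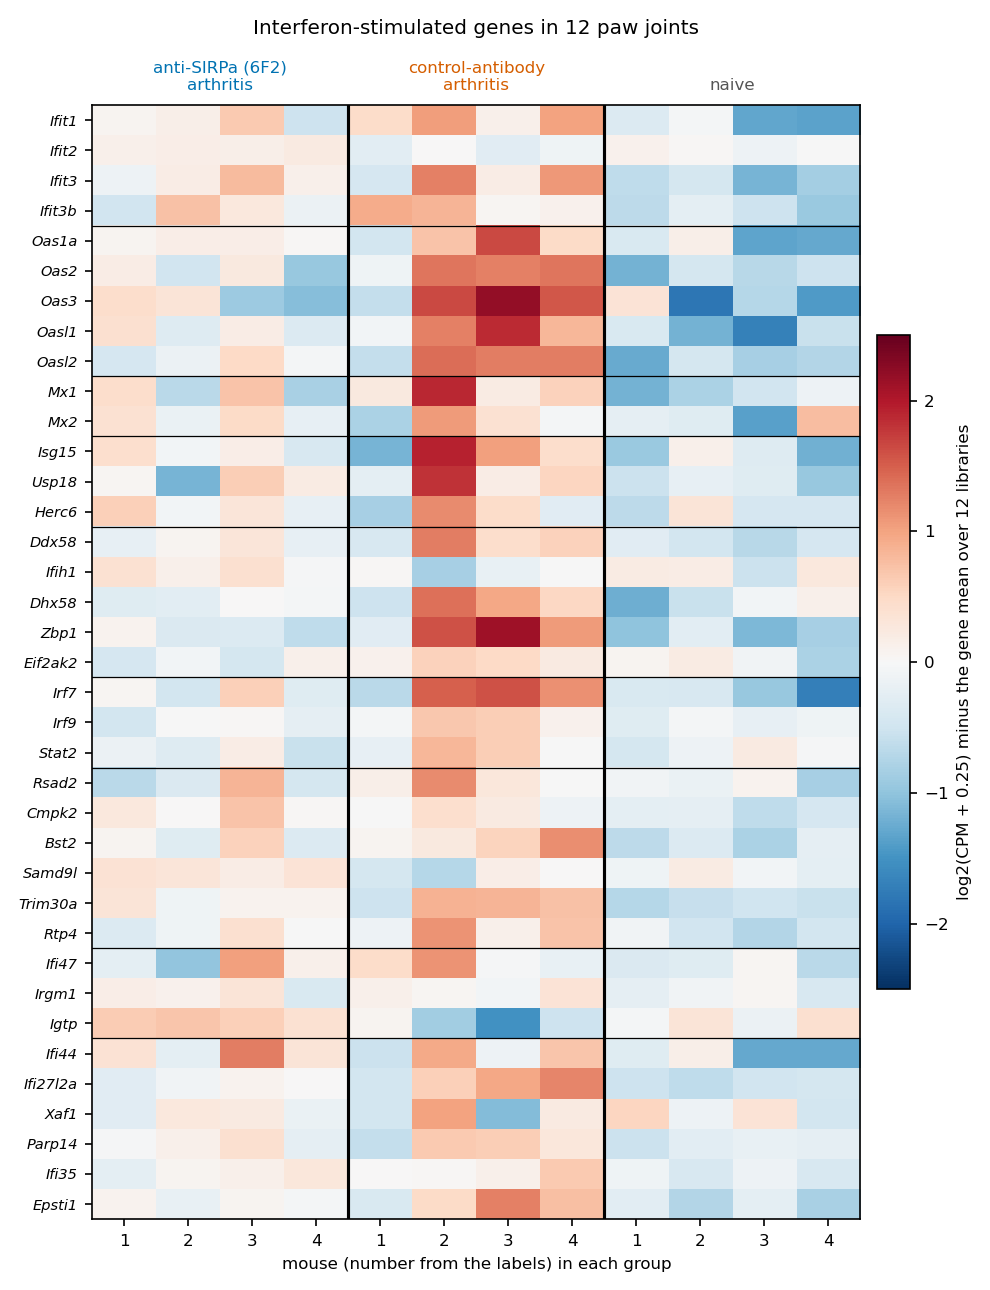
Each row is 1 of the 37 interferon-stimulated genes and each column 1 mouse, with anti-SIRPa mice on the left, control-antibody mice in the middle and naive mice on the right; colour is log2(CPM + 0.25) minus the mean of the gene over 12 libraries, and black lines separate groups and roles. Control-antibody mice 2, 3 and 4 carry most of the red, mouse 1 of that group looks paler, and Ifit2, Samd9l, Igtp and Ifih1 are among the rows that do not follow this pattern.

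The RNA and nucleic acid sensors held Zbp1, the member that changed in 2 comparisons. Zbp1 senses Z-form nucleic acid and can trigger necroptosis (chr2:173206612-173218923, minus strand). It had 2.12, 1.48, 1.52 and 1.19 CPM in anti-SIRPa mice 1 to 4, 1.57, 6.44, 9.37 and 4.40 CPM in control-antibody mice, and 0.852, 1.62, 0.773 and 0.996 CPM in naive mice. Control-antibody mice 2, 3 and 4 were above all other libraries, and mouse 1 of that group lay within the range of the other groups. Zbp1 rose in control-antibody over naive joints by 2.35 ± 0.47 (log2, SE; edgeR adjusted p = 0.0121), and this call held in all 12 fits that each left out 1 library. It fell under anti-SIRPa by 1.78 ± 0.45 on the log2 scale relative to control antibody (edgeR adjusted p = 0.0481), a call held in 1 of the 12 such fits, that without control-antibody mouse 1. Without both control-antibody libraries rich in receptor reads, its log2 fold changes were 2.33 for control-antibody over naive and -1.76 for anti-SIRPa over control-antibody joints, and neither passed.

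Ddx58 encodes RIG-I, the sensor of uncapped viral RNA. It had 9.70, 11.8, 13.9 and 9.62 CPM in anti-SIRPa mice, 8.44, 27.3, 15.2 and 16.7 CPM in control-antibody mice, and 9.13, 8.08, 6.82 and 8.28 CPM in naive mice. The anti-SIRPa libraries were all above the naive ones, and control-antibody mouse 1 was again within the naive range. It rose by 1.06 ± 0.28 in control-antibody over naive joints (edgeR adjusted p = 0.0311), but was called in 5 of the 12 fits without 1 library, being lost without control-antibody mouse 2, 3 or 4 or any naive mouse. Without both libraries rich in receptor reads its log2 fold change was 0.52. Ifih1, which encodes the long-RNA sensor MDA5, had a log2 fold change of -0.28 ± 0.22 in control-antibody over naive joints, and Dhx58, their regulator LGP2, of 1.17 ± 0.41 (edgeR adjusted p = 0.0811), with 150 counts assigned to an antisense neighbour, Dhx58os, against 458 to Dhx58. Eif2ak2, the kinase PKR that stops translation, had a value of 0.47 ± 0.22 there and -0.55 ± 0.22 for anti-SIRPa over control-antibody joints, and passed in neither.

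Of the transcription factors, Irf7 rose. Irf7 drives the amplification of type I interferon production. It had 5.76, 3.99, 8.52 and 4.47 CPM in anti-SIRPa mice, 3.39, 16.2, 17.3 and 12.5 CPM in control-antibody mice, and 4.20, 4.14, 2.74 and 1.53 CPM in naive mice. Control-antibody mouse 1 lay below the highest naive value and mice 2, 3 and 4 above every other library. The log2 fold change of control-antibody over naive joints was 1.96 ± 0.46 (edgeR adjusted p = 0.0236), lost without control-antibody mouse 2, 3 or 4 or naive mouse 2, 3 or 4. For anti-SIRPa over control-antibody joints it was -1.12 ± 0.45 (edgeR adjusted p = 0.152). The end of Irf7 overlaps Phrf1 on the other strand, a gene with 12068 counts against 1110 for Irf7.

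Stat2 and Irf9, which are both in the response element complex, were near their naive level in anti-SIRPa joints. Stat2 had 11.2, 9.98, 14.4 and 8.38 CPM in anti-SIRPa mice, 10.8, 22.6, 19.3 and 12.4 CPM in control-antibody mice, and 9.13, 11.5, 14.6 and 12.2 CPM in naive mice, with overlap between all groups. Its log2 fold change was 0.45 ± 0.24 for control-antibody over naive joints and -0.56 ± 0.25 for anti-SIRPa over control-antibody joints. For Irf9 these were 0.54 ± 0.18 and -0.53 ± 0.18, and for anti-SIRPa over naive joints 0.01 ± 0.18. Neither gene passed in any comparison.

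The oligoadenylate synthetase family, which includes enzymes that make the second messenger that activates RNase L, had the largest median among the 9 groups. Of its 5 genes 4 were tested, and Oas2, Oasl1 and Oasl2 rose in control-antibody over naive joints, with a family median of 2.28. Oasl2, the most abundant, had 4.52, 5.54, 8.74 and 5.94 CPM in anti-SIRPa mice, 3.97, 16.7, 15.3 and 15.4 CPM in control-antibody mice, and 2.43, 4.50, 3.37 and 3.60 CPM in naive mice. Control-antibody mice 2, 3 and 4 stood close together above all others, mouse 1 was within the naive range, and every anti-SIRPa mouse was above every naive mouse. Its log2 fold change over naive was 1.88 ± 0.38 in control-antibody joints (edgeR adjusted p = 0.0134), called in all 12 fits without 1 library. For anti-SIRPa over control-antibody joints it was -1.05 ± 0.37 (edgeR adjusted p = 0.111).

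Oasl1, an inhibitor of Irf7 translation in mice, had 1.12, 0.580, 0.939 and 0.566 CPM in anti-SIRPa mice, 0.744, 2.23, 3.55 and 1.59 CPM in control-antibody mice, and 0.548, 0.211, 0.0703 and 0.460 CPM in naive mice. Both arthritic groups were above all naive mice, at levels that rest on 51 counts in anti-SIRPa, 95 in control-antibody and 19 in naive libraries together. It rose by 2.61 ± 0.61 in control-antibody over naive joints (edgeR adjusted p = 0.0206), a call lost without control-antibody mouse 3 or naive mouse 2 or 4. Oas2 rose by 1.95 ± 0.42 (edgeR adjusted p = 0.0160), lost without control-antibody mouse 3, and Oas3 had 2.80 ± 0.92 with an edgeR adjusted p of 0.0669. For anti-SIRPa over control-antibody joints the values of Oas2, Oas3 and Oasl1 were -1.35 ± 0.41, -2.02 ± 0.87 and -1.33 ± 0.56, and none of these passed in edgeR, while DESeq2 called Oas2. Oas1a did not pass the filter, with 0.566 to 0.650 CPM in anti-SIRPa, 0.331 to 2.27 CPM in control-antibody and 0.0703 to 0.632 CPM in naive mice. Short reads cannot separate much of it from Oas1g: 57.6% of its 50-base words also occur there.

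The IFIT proteins, which bind viral RNA that lacks host cap methylation, split. Ifit1, Ifit3 and Ifit3b rose in control-antibody over naive joints and Ifit2 did not. Ifit3 had 3.29, 4.19, 6.50 and 3.96 CPM in anti-SIRPa mice, 2.65, 9.06, 4.15 and 8.01 CPM in control-antibody mice, and 2.25, 2.599, 1.48 and 1.92 CPM in naive mice. Every mouse of both arthritic groups was above every naive mouse. The log2 fold change was 1.52 ± 0.37 for control-antibody over naive joints (edgeR adjusted p = 0.0251), lost without control-antibody mouse 2 or 4 or any naive mouse. It was -0.41 ± 0.36 for anti-SIRPa over control-antibody joints, or 0.43 without both libraries rich in receptor reads, and 1.11 ± 0.37 for anti-SIRPa over naive joints, the smallest p of the 35 in that comparison, with an edgeR adjusted p of 0.9999.

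Ifit1 rose by 1.45 ± 0.38 (edgeR adjusted p = 0.0326) and was called in 6 of 12 fits, lost without control-antibody mouse 2, 3 or 4 or naive mouse 1, 3 or 4. Ifit3b rose by 1.20 ± 0.35 (edgeR adjusted p = 0.0436) and was called in 2 of 12 fits, those without anti-SIRPa mouse 1 or 2. Reads of Ifit3 and Ifit3b are hard to separate, since 51.2% of the 50-base words of Ifit3 also occur in Ifit3b. Ifit2 had 18.9, 19.3, 19.1 and 20.04 CPM in anti-SIRPa mice, 14.2, 17.3, 14.1 and 15.9 CPM in control-antibody mice, and 18.6, 17.7, 15.8 and 17.1 CPM in naive mice. The anti-SIRPa mice were above all other libraries within a narrow range, and the log2 fold change of anti-SIRPa over control-antibody joints was 0.33 ± 0.12 (edgeR adjusted p = 0.109), which DESeq2 called. Ifit2 was thus higher in anti-SIRPa mice where Ifit1 and Ifit3 had lower means than in control-antibody mice.

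**Figure D2:**
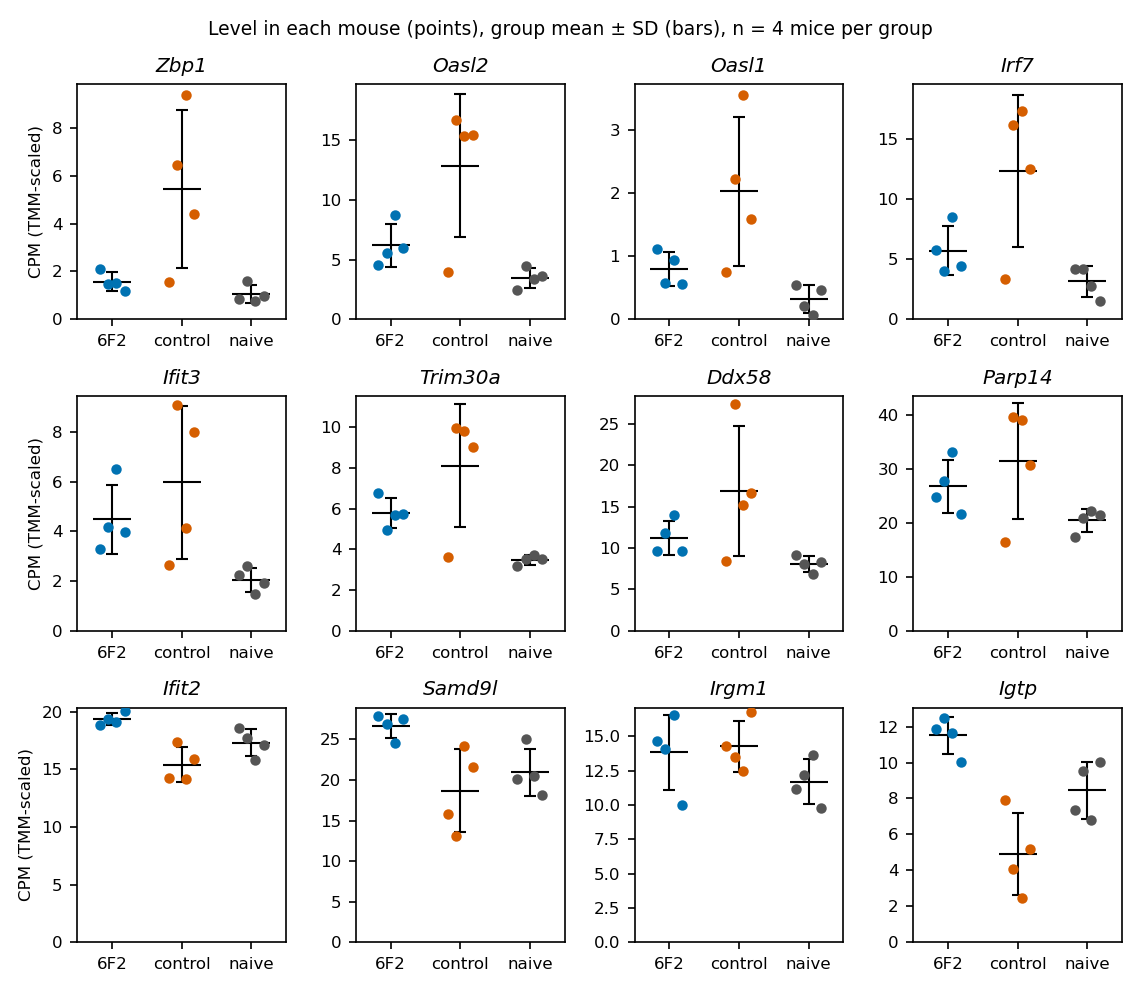
Each panel shows 1 gene, each point 1 mouse and each bar the group mean ± SD (n = 4), in TMM-scaled CPM on an axis from 0, with anti-SIRPa (6F2) left, control-antibody in the middle and naive right. Zbp1, Oasl2, Irf7 and Trim30a have 3 control-antibody mice far above the other 9 libraries and 1 among them, whereas Igtp has its highest values in anti-SIRPa mice 1, 2 and 3 and its lowest in control-antibody mice 2, 3 and 4.

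The genes of ISG15 modification did not pass in any comparison. Isg15 is a ubiquitin-like protein that is attached to other proteins, Usp18 removes it and also blocks the type I interferon receptor, and Herc6 attaches it in mice. Usp18 had 2.41, 0.902, 3.68 and 2.72 CPM in anti-SIRPa mice, 1.90, 8.67, 2.64 and 3.47 CPM in control-antibody mice, and 1.52, 1.97, 1.83 and 1.07 CPM in naive mice. Mouse 2 set the control-antibody mean: the log2 fold change over naive was 1.36 ± 0.49 with it (edgeR adjusted p = 0.0907) and 0.74 without it. Isg15 had 1.82 ± 0.72 and Herc6 0.61 ± 0.44 for control-antibody over naive joints. Isg15 was measured at 0.165 to 3.28 CPM in control-antibody mice, with the highest value in mouse 2 and the lowest in mouse 1.

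The MX GTPases, which trap viral nucleocapsids, did not pass either. Mx1 had 1.82, 0.708, 2.24 and 0.623 CPM in anti-SIRPa mice, 1.57, 5.39, 1.51 and 2.02 CPM in control-antibody mice, and 0.426, 0.632, 0.844 and 1.15 CPM in naive mice. Every control-antibody mouse was above every naive mouse, and the log2 fold change was 1.75 ± 0.56 (edgeR adjusted p = 0.0611). It was 1.16 without control-antibody mouse 2. Mx2, which the annotation lists as a polymorphic pseudogene, had 0.48 ± 0.64.

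Among the effectors of viral entry, replication and release, Bst2 and Trim30a rose in control-antibody over naive joints. Trim30a, a regulator of inflammatory signalling in mice, had 6.76, 4.96, 5.70 and 5.72 CPM in anti-SIRPa mice, 3.64, 9.98, 9.82 and 9.03 CPM in control-antibody mice, and 3.17, 3.51, 3.73 and 3.53 CPM in naive mice. Anti-SIRPa mice lay between the naive mice and control-antibody mice 2, 3 and 4, and control-antibody mouse 1 lay among the naive mice. The log2 fold change was 1.22 ± 0.27 for control-antibody over naive joints (edgeR adjusted p = 0.0187), lost without control-antibody mouse 2, 3 or 4 or naive mouse 1, 2 or 4. It was 0.73 ± 0.27 for anti-SIRPa over naive joints (edgeR adjusted p = 0.9999). Bst2, the tetherin that holds budding virions, rose by 1.16 ± 0.33 (edgeR adjusted p = 0.0404), called in 3 of 12 fits: those without control-antibody mouse 1, anti-SIRPa mouse 3 or anti-SIRPa mouse 4.

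Cmpk2, a mitochondrial nucleotide kinase, had 3.76, 3.09, 5.20 and 3.17 CPM in anti-SIRPa mice, 3.06, 4.20, 3.63 and 2.82 CPM in control-antibody mice, and 2.56, 2.599, 1.90 and 2.22 CPM in naive mice. All 8 arthritic mice were above all naive mice, and anti-SIRPa and control-antibody mice overlapped. Its log2 fold changes were 0.71 ± 0.25 for anti-SIRPa over naive and 0.55 ± 0.25 for control-antibody over naive joints, and neither passed. Rsad2, its neighbour and the antiviral enzyme viperin, had 0.71 ± 0.39 for control-antibody over naive joints. Rtp4, a chaperone of cell surface receptors, had 1.04 ± 0.32 there (edgeR adjusted p = 0.0569), and its locus overlaps Masp1 on the other strand, with 1553 counts against 472.

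Samd9l, an antiviral factor that restrains cytokine signalling, followed Ifit2. It had 27.9, 26.9, 24.5 and 27.5 CPM in anti-SIRPa mice, 15.8, 13.1, 24.2 and 21.6 CPM in control-antibody mice, and 20.1, 25.0, 20.5 and 18.2 CPM in naive mice. Anti-SIRPa mice were above every control-antibody mouse, with a log2 fold change of 0.51 ± 0.17 (edgeR adjusted p = 0.103), which DESeq2 called. Control-antibody and naive mice overlapped, at -0.16 ± 0.17.

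The immunity-related GTPases, a family that acts in defence against intracellular parasites and responds strongly to interferon gamma in mice, included the only member that rose under anti-SIRPa. Igtp (chr11:58199556-58207591, plus strand) had 11.9, 12.5, 11.6 and 10.02 CPM in anti-SIRPa mice, 7.94, 4.07, 2.49 and 5.20 CPM in control-antibody mice, and 7.37, 9.55, 6.82 and 10.04 CPM in naive mice. Every anti-SIRPa mouse was above every control-antibody mouse, and control-antibody mouse 3 was the lowest of all 12. Igtp rose under anti-SIRPa relative to control antibody by 1.22 ± 0.28 (edgeR adjusted p = 0.0378). The call was kept in 3 of 12 fits without 1 library, those without control-antibody mouse 1, naive mouse 4 or anti-SIRPa mouse 4. The log2 fold change was 1.17 without both libraries rich in receptor reads and 1.00 without control-antibody mouse 3, and it passed in neither.

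For control-antibody over naive joints Igtp had -0.77 ± 0.28 (edgeR adjusted p = 0.0895), which DESeq2 called, as did edgeR without control-antibody mouse 1, at -1.12. Igtp overlaps its relative Irgm2 on the same strand, and 11.8% of its 50-base words occur there as well. Irgm2 had 2473 counts in the 12 libraries against 1451 for Igtp, and a log2 fold change of 0.03 for anti-SIRPa over control-antibody joints. How the counting split reads between the 2 genes is not given in the sources used here. Irgm1, the most abundant of the 3 GTPases in CPM, had 14.7, 14.1, 16.5 and 10.02 CPM in anti-SIRPa mice, 14.3, 13.5, 12.5 and 16.8 CPM in control-antibody mice, and 11.1, 12.2, 13.6 and 9.81 CPM in naive mice. All groups overlapped, and its log2 fold change was -0.05 ± 0.17 for anti-SIRPa over control-antibody joints. Ifi47, at most 2.496 CPM in any library, had -0.30 ± 0.53 there.

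In the remaining group, Ifi27l2a and Epsti1 rose in control-antibody over naive joints, by 1.27 ± 0.28 (edgeR adjusted p = 0.0178) and 1.19 ± 0.31 (edgeR adjusted p = 0.0296). Ifi27l2a, a small hydrophobic protein, was called in 8 of 12 fits, lost without control-antibody mouse 3 or 4 or naive mouse 2 or 4. Epsti1 was called in 5, lost without control-antibody mouse 2, 3 or 4 or any naive mouse. Parp14, an ADP-ribosyltransferase and the group's most abundant member in CPM, had 24.7, 27.8, 33.2 and 21.7 CPM in anti-SIRPa mice, 16.5, 39.7, 39.1 and 30.7 CPM in control-antibody mice, and 17.4, 20.9, 22.2 and 21.5 CPM in naive mice. Control-antibody mouse 1 was the lowest of all 12 and mice 2 and 3 were the highest. The log2 fold change over naive was 0.62 ± 0.23 in control-antibody joints (edgeR adjusted p = 0.0968). Ifi35 had 0.50 ± 0.20 and Xaf1, a cofactor of apoptosis, -0.02 ± 0.47. Ifi44 did not pass the filter, with 39 counts in anti-SIRPa, 23 in control-antibody and 10 in naive libraries together.

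**Figure D3:**
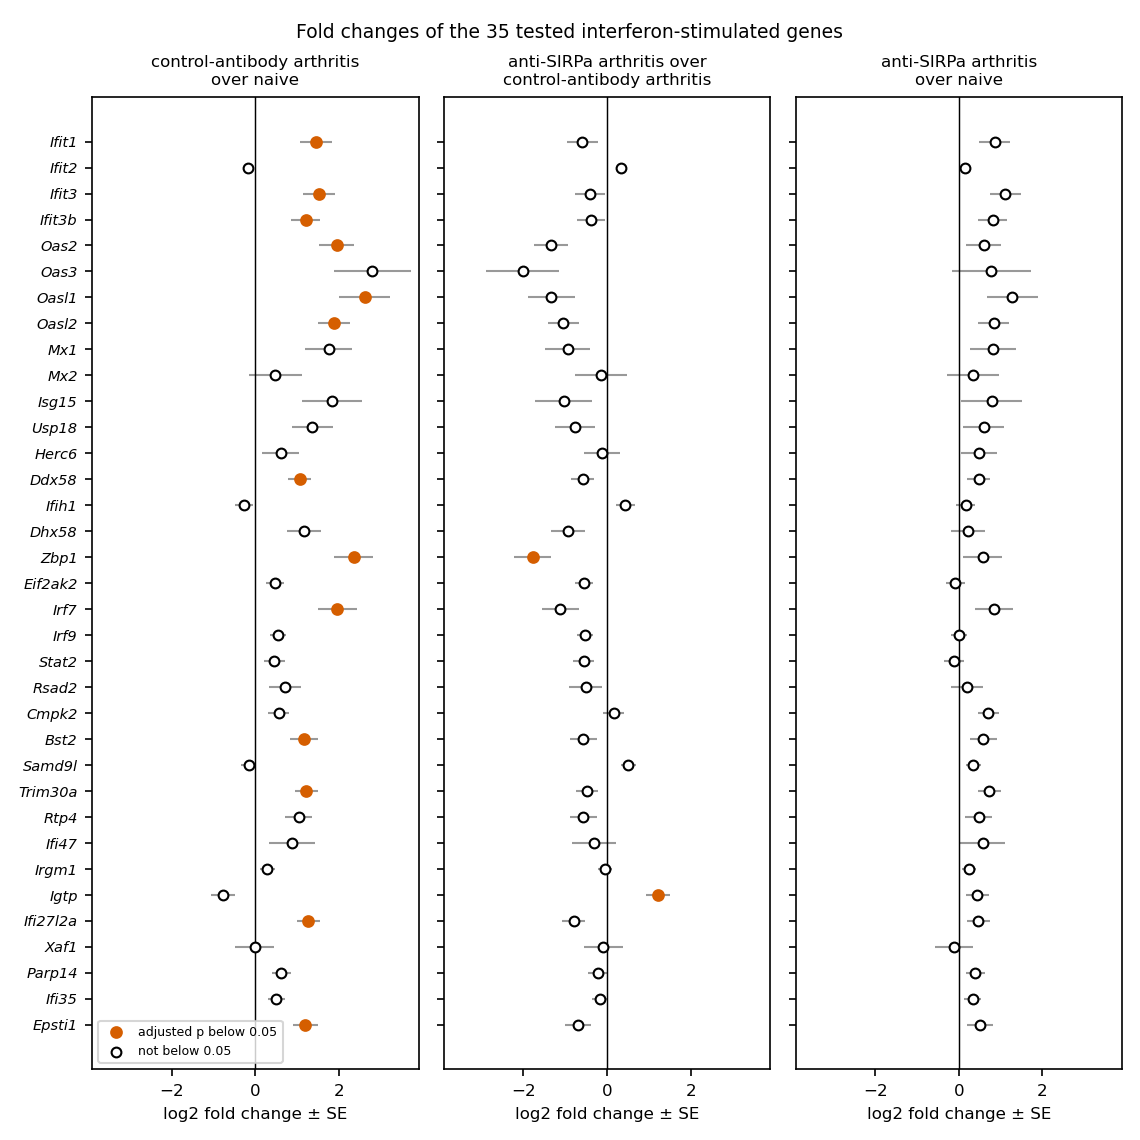
Log2 fold change ± SE of the 35 tested genes, in the order of their roles, for control-antibody over naive, anti-SIRPa over control-antibody and anti-SIRPa over naive joints; filled points passed an adjusted p of 0.05 in edgeR. The left panel has 13 filled points, all above 0, the middle panel has Zbp1 below 0 and Igtp above 0, and the right panel has none.

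Per kilobase of annotated exon, the scale on which levels of different genes can be set side by side, the members spanned from 0.072 CPM per kb for Ifi44 to 17.7 for Ifi27l2a, as means over the 12 libraries. Next after Ifi27l2a came Ifit2 at 4.41, Ifi35 at 4.19, Igtp at 4.10 and Samd9l at 4.07 CPM per kb. The 3 members with every anti-SIRPa mouse above every control-antibody mouse were thus among the 5 highest. That overlap was noticed after the values were known, and a relation between level and course was not tested. Oas3 at 0.145 and Mx2 at 0.235 CPM per kb were among the lowest.

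The library that stood apart within the control-antibody group weighed on both comparisons. Of the 13 genes that rose, control-antibody mouse 1 was below the other 3 mice of its group for 11 and above all naive mice for 6, while mice 2, 3 and 4 were above all naive mice for all 13. The 13 were picked for being higher in this group than in naive mice, so the last count follows in part from that choice. Without mouse 1, 21 members rose and 1 fell, Igtp, over naive, and 13 fell and Igtp rose under anti-SIRPa. Calls over all genes grew as well in that fit, to 4694 of 17271 over naive, 2507 of them higher, and to 3976 under anti-SIRPa, 2064 of them lower. Without control-antibody mouse 2, 3 or 4 the first comparison gave 5, 3 and 4 member calls, beside 611, 412 and 664 over all genes. Without naive mouse 1, 2, 3 or 4 it gave 7, 4, 6 and 3, beside 720, 619, 888 and 469 over all genes. The main fit called 1721 of all genes in that comparison. Without both libraries rich in receptor reads, 0 of the members and 1 of all genes were called over naive. The median of the members was then 0.52 for control-antibody over naive joints and -0.17 for anti-SIRPa over control-antibody joints. Without both libraries poor in epidermal reads 0 members passed in either comparison, beside 166 and 0 of all 17036 genes. The medians of the members were then 1.08 and -0.48.

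Markers of leukocytes moved with these values, and within the control-antibody group so did those of joint tissue and endothelium. Joint tissue genes summed to 10818 to 14864 CPM in anti-SIRPa, 9048 to 27321 in control-antibody and 9385 to 14681 in naive mice. Endothelial genes summed to 96.9 to 130 CPM, 74.6 to 190 CPM and 103 to 139 CPM in the same order. In both sums control-antibody mouse 1 was the lowest of all libraries. The summed level of the 5 leukocyte genes was 97.4 to 140 CPM in anti-SIRPa, 70.8 to 191 CPM in control-antibody and 68.2 to 91.6 CPM in naive mice, with control-antibody mouse 1 the lowest of its group. Of these 5, 3 rose in control-antibody over naive joints, as did 7 of 9 tested monocyte and macrophage genes, whose sum was 288 to 391 CPM in anti-SIRPa, 233 to 557 CPM in control-antibody and 251 to 267 CPM in naive mice. Neither list had a call for anti-SIRPa over control-antibody joints, but all tested genes of both had log2 fold changes below 0. The median was -0.44 for the 5 leukocyte genes and -0.94 for the 9 monocyte and macrophage genes, against -0.03 over all genes. At an unadjusted edgeR p under 0.05 there were 0 of the 5 and 6 of the 9, against 24.4% of all genes. Of the neutrophil list, which sums to 9.57 to 43.1 CPM in anti-SIRPa, 11.0 to 40.8 CPM in control-antibody and 2.74 to 9.90 CPM in naive mice, Cxcr2 and Csf3r rose over naive. For anti-SIRPa over control-antibody joints that list split, with 2 of 5 tested genes above 0 and 3 below, and 0 passed in edgeR. The log2 fold changes were -2.53 for Cxcr2, -2.50 for Csf3r and -1.16 for Il1r2, but 1.07 for S100a8 and 0.87 for S100a9. Among anti-SIRPa mice, mouse 3 had the highest member level and the highest sums of neutrophil, of B and plasma cell and of erythroid genes. The B and plasma cell sum was 10.8 CPM in that mouse and 2.04 to 3.35 CPM in the other anti-SIRPa mice, against 0.227 to 1.97 CPM in control-antibody and 0 to 1.12 CPM in naive mice. The erythroid sum was 15.5 to 41.2 CPM in anti-SIRPa, 5.99 to 11.99 CPM in control-antibody and 12.2 to 14.0 CPM in naive mice, and Hbb-bs, a beta globin, was the only marker called for anti-SIRPa over control-antibody joints. In bulk tissue, fewer cells of a type and less RNA per cell cannot be told apart, and the part of cell composition in the member values was not tested.

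Plasmacytoid dendritic cells, a main source of interferon alpha, left few reads. Without Cox6a2, which muscle also expresses, their 4 markers summed to 2.88 to 4.81 CPM in anti-SIRPa, 3.06 to 7.75 CPM in control-antibody and 0.920 to 3.17 CPM in naive mice, and Klk1 was at 0 in 10 of 12 libraries. The 8 T and NK cell genes summed to 2.06 to 4.62 CPM in anti-SIRPa, 0.579 to 6.17 CPM in control-antibody and 0.773 to 2.299 CPM in naive mice. Markers of skeletal muscle ran the other way, at 20981 to 30474 CPM in anti-SIRPa, 10609 to 29050 CPM in control-antibody and 27978 to 38006 CPM in naive mice, with control-antibody mouse 1 the highest of its group. Their part in the result was not tested.

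**Figure D4:**
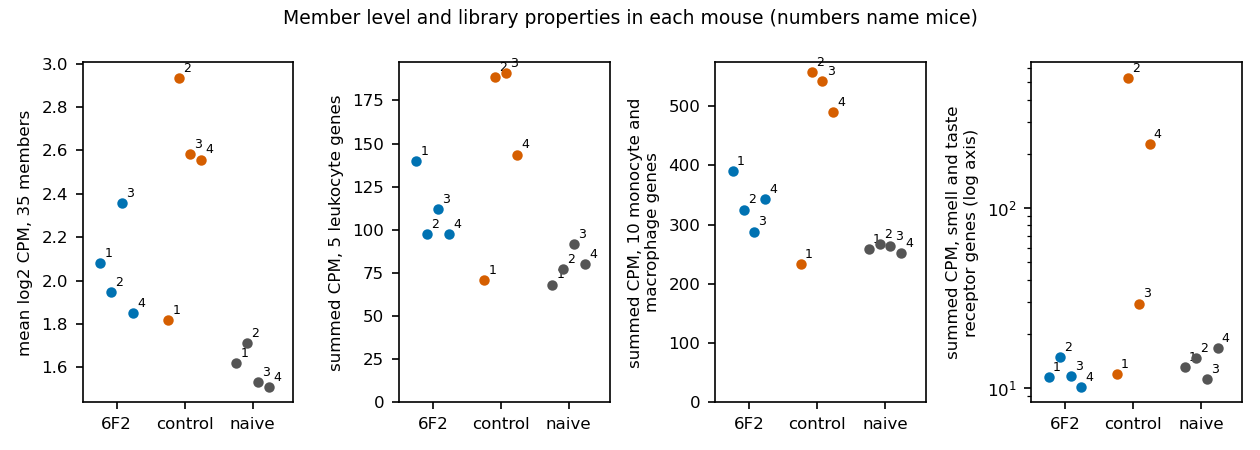
For each mouse, by its number, the panels give the mean log2 CPM of the 35 tested interferon-stimulated genes, the summed CPM of 5 leukocyte and of 10 monocyte and macrophage markers, and the summed CPM of smell and taste receptor genes on a log axis, with anti-SIRPa (6F2) left, control-antibody in the middle and naive right. Control-antibody mouse 1 is the lowest of its group in all 4 panels, and control-antibody mice 2 and 4 are the highest of all in the last.

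The interferons themselves were hardly detected. Of 20 ligand genes none passed the filter, and together they had 2 counts in anti-SIRPa, 62 in control-antibody and 4 in naive libraries. Of the 62, 51 came from control-antibody mouse 2, and 45 of these fell on the interferon alpha genes, which lie in a tandem cluster. In that library the alpha genes stood at 0.600 CPM per kb, against 0.0906 CPM per kb for the smell and taste receptor genes, of which 53 of 1975 (2.68%) had a higher level. In the other 11 libraries the 20 genes together had at most 9 counts, in control-antibody mouse 4, and 4 counts in naive mouse 1, where 3 counts correspond to 0.183 CPM.

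The receptors and kinases had 0 of 9 calls in each comparison in edgeR, with 3 of 9 at an unadjusted p under 0.05 for control-antibody over naive joints and 1 of 9 for anti-SIRPa over control-antibody joints, against 28.2% and 24.4% of all genes. Jak1, the most abundant of them in CPM, had 322 to 377 CPM in anti-SIRPa, 268 to 360 CPM in control-antibody and 322 to 364 CPM in naive mice. The other interferon transcription factors had 0 of 6 calls in each comparison in edgeR, with 3 and 2 of 6 at an unadjusted p under 0.05 in these 2 comparisons, beside the same shares of all genes.

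Upstream of the interferons, 3 of 11 sensing genes rose in control-antibody over naive joints. Tmem173 encodes STING, the adaptor of the cytosolic DNA sensor. It had 8.76, 8.63, 8.01 and 6.62 CPM in anti-SIRPa mice, 10.4, 23.6, 28.2 and 17.0 CPM in control-antibody mice, and 7.18, 7.87, 8.30 and 8.89 CPM in naive mice. Every control-antibody mouse was above every mouse of the other groups, which overlapped. Tmem173 rose by 1.30 over naive (edgeR adjusted p = 0.0106), in all 12 fits without 1 library, and fell under anti-SIRPa by 1.31 on the log2 scale relative to control antibody (edgeR adjusted p = 0.0262), in 6 of the 12. Under anti-SIRPa the call was lost without control-antibody mouse 2, 3 or 4 or anti-SIRPa mouse 1, 2 or 3.

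Myd88, the adaptor of most Toll-like receptors, rose by 1.15 over naive (edgeR adjusted p = 0.0243) and fell by 1.12 under anti-SIRPa on the log2 scale (edgeR adjusted p = 0.0465), calls kept in 6 and 2 of the 12 fits. It was 12.8 to 19.8 CPM in anti-SIRPa, 14.8 to 45.3 CPM in control-antibody and 12.9 to 18.4 CPM in naive mice. Cgas, the DNA sensor upstream of STING, rose by 1.33 over naive (edgeR adjusted p = 0.0434), in 2 of 12 fits. Mavs, the adaptor of RIG-I and MDA5, was the most abundant of the sensing genes in CPM, and its log2 fold change was -0.25 for control-antibody over naive joints and 0.15 for anti-SIRPa over control-antibody joints.

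Of 4 feedback inhibitors, Socs3 changed. Socs3 blunts signalling of interleukin 6 family receptors more than that of interferon receptors. It had 25.8, 41.7, 31.3 and 32.3 CPM in anti-SIRPa mice, 34.7, 121, 142 and 103 CPM in control-antibody mice, and 22.8, 15.2, 24.2 and 20.7 CPM in naive mice. Both arthritic groups were above all naive mice, and control-antibody mouse 1 was within the anti-SIRPa range. Socs3 rose by 2.27 over naive (edgeR adjusted p = 0.0079), in all 12 fits, and fell by 1.61 on the log2 scale under anti-SIRPa (edgeR adjusted p = 0.0376), in the fit without control-antibody mouse 1 alone among the 12. Socs1, the main inhibitor of interferon receptors, had 0.63 for control-antibody over naive joints and -1.0 for anti-SIRPa over control-antibody joints, and passed in neither.

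Targets of interferon gamma had 1 of 10 tested genes called over naive, Psmb8 of the immunoproteasome, at 1.14 (edgeR adjusted p = 0.0251, in 6 of 12 fits), and 0 of 10 under anti-SIRPa. Irgm2, their most abundant gene in CPM, had 0.02 over naive. Of 26 tested further interferon-stimulated genes, Ifitm1, Ifitm3, Trim25, Lgals3bp, Slfn1 and Ly6e rose over naive and 0 passed under anti-SIRPa. Lgals3bp, a secreted scavenger receptor protein, had 23.4, 21.7, 23.8 and 23.2 CPM in anti-SIRPa mice, 19.8, 60.8, 54.2 and 46.4 CPM in control-antibody mice, and 16.7, 18.1, 22.3 and 14.4 CPM in naive mice. Its log2 fold changes were 1.34 over naive (edgeR adjusted p = 0.0131), in all 12 fits, and -0.97 under anti-SIRPa (edgeR adjusted p = 0.0583). Ly6e, a membrane protein that blocks viral fusion, had 1.32 over naive (edgeR adjusted p = 0.0158), lost without control-antibody mouse 3 or naive mouse 4. Ifitm1 was above 1 CPM in control-antibody mice 2, 3 and 4 only, at 4.73, 1.66 and 1.88 CPM. Slfn5, the most abundant of these genes in CPM, had 0.34 over naive and did not pass.

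Over all the further pathway genes, 11 of 66 tested rose in control-antibody over naive joints and 0 fell, with a median of 0.41. Under anti-SIRPa 0 rose and 3 fell, with a median of -0.25, and 0 of 66 passed between anti-SIRPa and naive joints. Read against the 5.87% of all genes that rose over naive, the pathway genes had 16.7% and the interferon-stimulated genes 37.1%. Without control-antibody mouse 1, 34 of 68 pathway genes passed over naive and 20 of 68 under anti-SIRPa, in a fit where 4694 and 3976 of all 17271 genes passed. Without both libraries rich in receptor reads 0 pathway genes passed in either comparison, beside 1 and 0 of all 17336 genes.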

How the data were processed

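The authors deposited unnormalized whole-number read counts for each gene in 12 libraries. The build is GRCm38, per the submitters' processing notes, and library preparation used a kit that keeps strand, per the labels' protocols. No source used here names the aligner or the counter, says whether counting used strand, or says how reads shared by genes were counted, so overlapping, antisense and near-identical genes are uncertain. Coordinates are from GENCODE M21 on the same build, promoter sequences from RefSeq (GRCm38.p6).

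Counts were fitted with edgeR 4.0.16 in R 4.3.3 (filterByExpr, TMM, robust quasi-likelihood, 1 coefficient per group, all 12 libraries), which left 16674 genes, with Benjamini-Hochberg adjustment over them, a two-sided threshold of 0.05 and a biological coefficient of variation of 0.334. Log2 CPM used a prior count of 2. No pair of libraries in a group was within sampling noise. Levels per kb divide CPM by annotated exon length. Given with every library were the member of highest mean CPM in each role, the members called for anti-SIRPa against control antibody, and the 3 called members of largest fold change (or the 3 of smallest p) in each other comparison; of the further pathway lists, the most abundant gene and up to 3 called genes of smallest p. Other members have fold changes or ranges. Floors of 3 counts cover counting error only. DESeq2 1.42.0 and limma-voom 3.58.1 were alternatives. Scripts were tested on simulated data. The members and lists were chosen with earlier results of these data known. A result on 1 pathway gene is not reported here.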

Additional observations from a re-analysis of the deposited data

Results flagged for a closer look

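In 7 of 111 combinations of gene and group, the highest or lowest mouse lay farther from the other 3 than Dixon's critical ratio for 4 values allows. Chance alone flags about 1 in 20, or 5%, of such groups. Oas2 was lowest in control-antibody mouse 1, at 1.82 CPM against 5.06 to 5.42 CPM in the other mice of its group. Oasl2 was lowest there too, at 3.97 CPM against 15.3 to 16.7 CPM. Trim30a was lowest in the same mouse, at 3.64 CPM against 9.03 to 9.98 CPM. Mx1 was highest in control-antibody mouse 2, at 5.39 CPM against 1.51 to 2.02 CPM. Ifi35 was highest in control-antibody mouse 4, at 11.3 CPM against 7.11 to 7.70 CPM. Rsad2 was highest in anti-SIRPa mouse 3, at 7.22 CPM against 2.35 to 2.96 CPM. Ifih1 was lowest in naive mouse 3, at 7.31 CPM against 12.3 to 13.0 CPM. Of these 7 values, 3 come from control-antibody mouse 1. All the genes were measured in the same mice, so the flags are not independent of each other.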

How the results depend on the processing

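For control-antibody over naive joints, the 13 member calls became 19 with DESeq2 (18 higher and 1 lower) and 3 with limma-voom. They became 3 in a fit of only both groups compared. They became 0 without the libraries rich in receptor reads or without those poor in epidermal reads (both sets chosen after seeing the data). In the same order the 11 further pathway genes became 20, 6, 2, 0 and 2. The 1721 calls over all genes became 2905, 1163, 435, 1 and 166. Leaving out 1 library gave 3 to 22 members, 4 to 34 pathway genes and 412 to 4694 of all genes. For anti-SIRPa over control-antibody joints, the 2 member calls became 5 with DESeq2, 1 with limma-voom and 1 without robust dispersion. They became 0 in a fit of only both groups and without either set of libraries. In that order the 3 pathway genes became 8, 1, 3, 0, 0 and 0. The 548 calls over all genes became 1892, 345, 524, 0, 0 and 0. With 1 library left out there were 0 to 14 members, 0 to 20 pathway genes and 0 to 3976 of all genes. For anti-SIRPa over naive joints every setting gave 0 members and 0 pathway genes, and at most 20 of all genes, with DESeq2. Other scalings and filters kept the counts of members and pathway genes within 1.5 times. The member level ran from 1.96 to 2.13, 2.32 to 2.69 and 1.55 to 1.62 in anti-SIRPa, control-antibody and naive mice when 1 library was left out, and the naive level was 1.48 with a prior count of 0.5. The causes were not tested. With the mouse number as a replicate block, 4 members, 5 pathway genes and 735 of all genes passed over naive. Under anti-SIRPa 0, 0 and 78 passed. Same-numbered mice did not deviate together in every pair (r of 0.21, 0.02, -0.02 and -0.00 for control-antibody and naive mice). For anti-SIRPa and control-antibody mice r was -0.13, -0.01, 0.10 and -0.08. For anti-SIRPa and naive mice it was -0.34, -0.55, -0.08 and -0.80, with 0.77 between anti-SIRPa mouse 2 and naive mouse 4. These values do not settle whether the numbers mark a shared batch, and the numbers are used here only as names. No call reversed, but uncalled values did, and not only those near 0. For anti-SIRPa over control-antibody joints 5 of 35 members were above 0, and 13 of 35 without the libraries rich in receptor reads. Ifit3, at -0.41 with all libraries, was among those that turned positive. Genes with few counts, such as Oas3 and Isg15, limit precision.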
